A study of Mus musculus with 18 samples.

Results

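The 9 annotated miRNA loci of the mouse described here are Mir5099, Mir5100, Mir5108, Mir5112, Mir5114, Mir5119, Mir5126, Mir6236 and Mir6538. They carry late serial numbers, and their standing as miRNAs is in doubt or their sequence was thought to resemble ribosomal or other abundant RNA. They are 9 of the 2009 loci in the count files and were picked by symbol, with results of these data already known and with counts over the 4 groups in view. Their levels are therefore a description, and the tests below are not independent support for the choice. Their counts made up 53690 of 17629699 counts in all.

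The study sequenced small RNA of adipose stromal cells (ASC), mesenchymal cells grown out of fat, and of the extracellular vesicles (EVs) shed by them. It compared vesicles with their parent cells, and primed with naive vesicles. Primed EVs (n = 5) came from ASC given interferon gamma, a cytokine of activated T and natural killer cells, for 24 h, and naive EVs (n = 5) from ASC without it. Primed ASC (n = 4) and naive ASC (n = 4) are the cells themselves. In all groups ASC were labelled as adult, of strain NGL and from adipose tissue, and were grown for 48 h in alpha MEM with 2% serum freed of EVs. Cells were extracted with TRIzol plus RNeasy columns but EVs with a SeraMir column kit, so isolation method and EV or cell origin cannot be told apart. The labels do not state whether replicates are separate animals or cultures. The p-values therefore reflect the spread among the libraries alone, which may be technical. In the bulk RNA used here, fewer cells or vesicles carrying an RNA and less of it in each cannot be told apart.

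Total counts at miRNA loci were 626951 to 3052942 in primed EVs, 613448 to 2245823 in naive EVs, 180812 to 895721 in primed ASC and 486237 to 926183 in naive ASC. The 9 stromal miRNA loci held a median of 70.2%, 67.3%, 36.9% and 48.2% of counts in these 4 groups, in the same order. They differed in direction. In naive EVs over naive ASC the log2 fold change (edgeR) was 3.07 for Mir21a, 1.23 for Mir22 and 1.15 for Mir143. It was -2.79 for Mir145a and -2.17 for Mir214. Mir10a, Mir10b and Mir199a-2 were at -0.20, -0.10 and -0.08, and Mir199a-1 had 2, 1, 11 and 4 counts in the 4 groups. Of the 4 neuronal loci in the files Mir124a-1, Mir124a-3 and Mir9-2 were at 0 in every library, and Mir124a-2 had 1 count in naive ASC. Of the 4 striated muscle loci Mir133a-1 and Mir133a-2 were at 0, Mir1a-1 had 1 count in primed ASC and 1 in naive ASC, and Mir206 had 2, 8, 6 and 50 counts in the 4 groups. Mir122 of liver had 16, 39, 1 and 0 counts. The 5 epithelial loci, led by Mir205, held 0.000721% to 0.0568% of counts in primed EVs, 0.00138% to 0.264% in naive EVs, 0.00625% to 0.127% in primed ASC and 0.0037% to 0.266% in naive ASC. Blood cell miRNAs (5 loci in the files, among them Mir451a and Mir144 of red cells) held 0.145% to 0.613% in primed EVs, 0.357% to 1.47% in naive EVs, 0.00873% to 0.0492% in primed ASC and 0.0108% to 0.0187% in naive ASC. Mir126a of endothelium held 0.198% to 0.496%, 0.318% to 0.902%, 0.00601% to 0.0592% and 0.0105% to 0.0288%.

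MicroRNAs are cut from hairpin precursors by Drosha and Dicer, and the mature strand, loaded into an Argonaute protein, pairs with messenger RNAs mainly through its seed, bases 2 to 8. Loci with high numbers were mostly added to the catalogue from deep sequencing. For some of them the reads may be fragments of tRNA, rRNA, snoRNA or messenger RNA, which small RNA libraries also capture. The identity of the underlying molecule matters for these 9 loci, because a count at such a locus need not be a miRNA.

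The annotated mature sequences are printed to show what is annotated at each locus. A counted read need not hold them, because counts cover the whole locus on either strand. RefSeq (GRCm38.p6) gave 7 of the 9, and for Mir5099 it gave the hairpin only, whose last bases (positions 45 to 74) are shown. All run 5′ to 3′, with the seed in capitals where there is a mature sequence.
miR-5100: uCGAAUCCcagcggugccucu
miR-5108: gUAGAGCAcuggaugguuu
miR-5114: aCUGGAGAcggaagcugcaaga
miR-5119: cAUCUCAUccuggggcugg
miR-5126: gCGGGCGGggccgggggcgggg
miR-6236: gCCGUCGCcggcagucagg
miR-6538: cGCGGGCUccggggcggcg
Mir5099 hairpin end: cuuagaucgauguggugcuccugaguucuc

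No 2 of these 7 mature sequences shared a seed. Among 1738 RefSeq mature miRNAs, without those of chromosome 18, only the seed of miR-5114 occurred again, in mmu-miR-7094b-2-5p. The mature miR-5126 is built of G and C alone, and miR-6538 is 94.7% G and C. Hairpin sequences were found for 7 loci, all but Mir6236 and Mir5112. Mir5112 could not be found, because all hairpins of chromosome 18 were left out. Their GC content ran from 37.8% for Mir5099 to 83.1% for Mir5126, against a median of 50% over the 215 tested loci with a hairpin. Mir5126 was above every other one of those hairpins, and Mir6538, at 75.5%, was above 98.6% of them. The longest run of identical bases between any 2 of the 7 hairpins was 9, between Mir5126 and Mir6538.

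The search for exact matches could not decide the likeness to abundant RNA. It lacked nuclear tRNAs, the long 28S rRNA and the hairpins of Mir6236 and Mir5112. The longest run that each of the 7 hairpins shared with 3910 annotated structural RNA transcripts (rRNA, mitochondrial tRNA, snRNA, snoRNA and similar classes) was 12 to 14 bases, and the median over tested hairpins was 13. Nuclear tRNAs and the long 28S rRNA were not analysed here, and the longest rRNA transcript searched had 1849 bases. The letters GTTCGANTC, the usual core of the T arm of tRNAs, were searched on both strands and do not overlap another motif searched. They occurred in Mir5100, from position 34 of its hairpin, and in no other of 1005 RefSeq hairpins outside chromosome 18, a share of 0.0995%. The match covers the start of miR-5100 and is a description of letters only. As the likeness was left undecided, the loci are called late-numbered loci below.

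Runs shared with transcripts of any class but miRNA, coding or not, were longer for some loci. They were not set against the runs of other hairpins. The whole Mir5114 hairpin, 61 bases, is sense sequence of transcripts of Scd2, a fatty acid desaturase gene. The whole Mir5126 hairpin, 77 bases, is antisense to Dner, which codes for a neuronal Notch ligand, and 20 of its bases recur in Nova2, a neuronal splicing factor gene. Mir5100 shared 18 bases with Scaf11 and Mir5108 shared 18 with Cntn3, while Mir5099, Mir5119 and Mir6538 had no run of 18 or more. All coordinates are GRCm38. Mir5114 (chr19:44303171-44303231, plus strand) lies in an exon of Scd2, with 27 bases in coding sequence and an overlap with UTR. Mir5126 (chr1:84695839-84695915, plus) lies opposite an exon and UTR of Dner. Mir5100 (chr11:60728663-60728726, plus) is in an intron of Mief2, a mitochondrial fission gene, and Mir5119 (chr11:98262606-98262662, plus) in an intron of Cdk12, a kinase gene of transcription elongation. Mir6538 (chr12:26414901-26415010, minus) is in an intron of Rnf144a, a ubiquitin ligase gene, and Mir5108 (chr10:61774737-61774821, plus) is antisense to an intron of H2afy2, a histone variant gene. Mir5112 (chr18:82720281-82720340, plus) is in an exon of the long noncoding RNA AC113104.3 and antisense to an intron of AC113104.1. Mir5099 (chr12:36816205-36816278, plus) and Mir6236 (chr9:110281287-110281409, plus) are intergenic, 61687 and 7543 bases from the nearest gene. Counting ignored strand, so reads from these loci and from the genes that overlap them cannot be told apart.

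Together the 9 loci held 0.267% ± 0.0813 of all counts in primed EVs, 0.364% ± 0.163 in naive EVs, 0.486% ± 0.223 in primed ASC and 0.285% ± 0.0601 in naive ASC (SD over 5, 5, 4 and 4 libraries). Libraries ran from 0.165% to 0.376%, 0.209% to 0.623%, 0.238% to 0.679% and 0.206% to 0.335%, and all 4 groups overlapped. The make-up of that share differed. Mir6236 gave 88.3% of the 9 loci's counts in primed EVs, 86.3% in naive EVs, 73.2% in primed ASC and 45.4% in naive ASC. Mir5099 gave 1.00%, 1.52%, 22.9% and 52.3% in the same groups, and Mir5112 gave 5.93%, 7.54%, 0.101% and 0.0876%. In the plot of shares these 3 loci fill most of every bar.

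**Figure D1:**
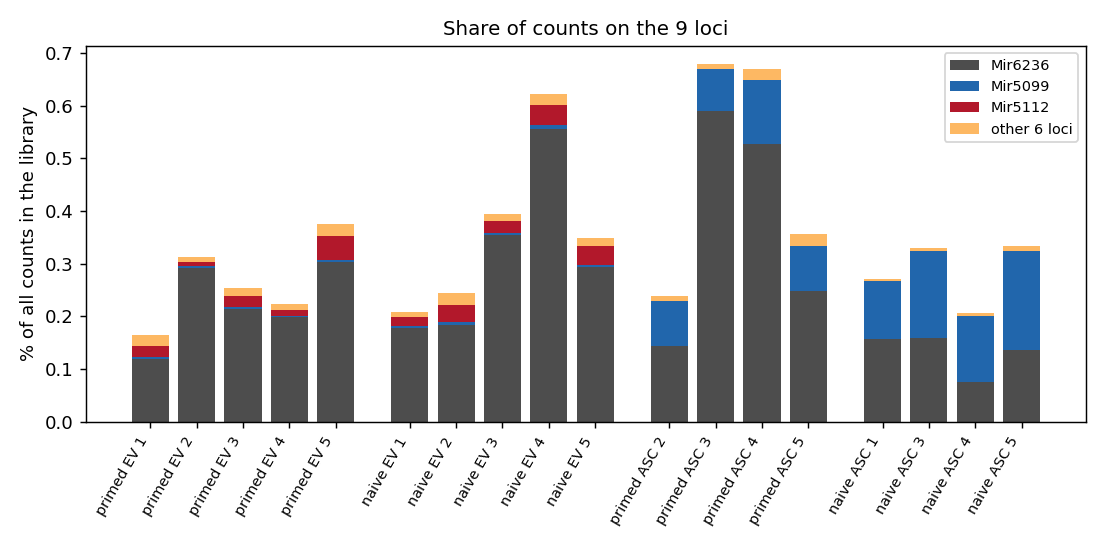
Share of all counts (%) on the 9 loci in each of the 18 libraries, stacked by locus, with EV libraries on the left and ASC libraries on the right. Mir5099 is visible chiefly in ASC libraries and Mir5112 chiefly in EV libraries, while primed ASC 3 reaches the highest total at 0.679%.

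Changes were tested on counts with edgeR's quasi-likelihood test in 1 model over the 18 libraries. Levels are in CPM, counts scaled to the library total after correction by trimmed means (TMM). A change was called at a Benjamini-Hochberg adjusted p of 0.05 or less over 245 tested loci. Of the 9 loci 8 were tested, since Mir5100 had too few counts. Mir5108, Mir5112, Mir5119 and Mir6538 passed that filter through their EV counts, being near 0 in cells. Their calls in EVs against ASC are therefore not independent support for a higher level in EVs. Mir5126, at 1 to 4 counts per naive ASC library, passed the filter through EV and primed ASC libraries. Levels are not comparable between loci as amounts of RNA, because capture may differ between sequences.

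**Figure D2:**
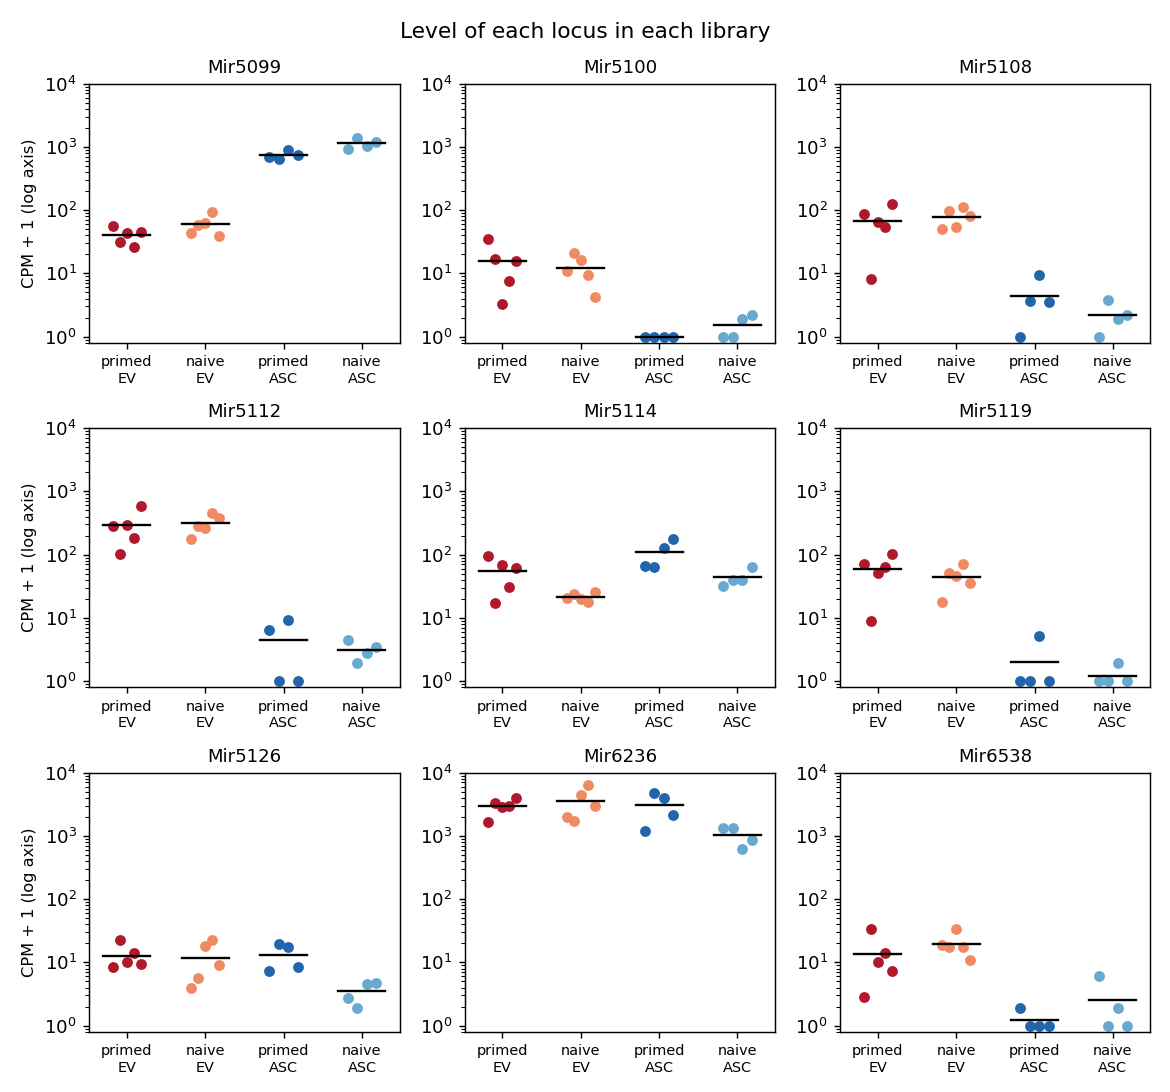
Level of each of the 9 loci in each library, as CPM + 1 on a log axis, with a point per library and a bar at each group's mean. Mir5099 is high in ASC, where its lowest library has 650 CPM, and 5 other loci (Mir5100, Mir5108, Mir5112, Mir5119 and Mir6538) are at or near 0 in ASC.

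The locus with the clearest cell pattern was Mir5099. It had 54.5, 30.9, 41.9, 24.9 and 43.6 CPM in primed EVs 1 to 5, against 685, 650, 900 and 740 CPM in primed ASC 2 to 5. It had 42.6, 58.2, 61.3, 93.0 and 38.0 CPM in naive EVs 1 to 5, against 912, 1396, 1033 and 1207 CPM in naive ASC 1, 3, 4 and 5. Every EV library was below every ASC library. In primed EVs Mir5099 was at a log2 fold change of -4.27 to primed ASC (SE 0.28, adjusted p = 1.04e-10, edgeR), or 19.3-fold lower. In naive EVs it was at -4.29 to naive ASC (SE 0.27, adjusted p = 2.92e-10, edgeR), or 19.5-fold lower. Its counts in EVs were not near 0, at 21 to 83 per primed and 23 to 87 per naive EV library.

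Mir5112 had the reverse pattern. It had 280, 103, 296, 181 and 596 CPM in primed EVs 1 to 5, against 5.45, 0, 8.30 and 0 CPM in primed ASC 2 to 5. It had 179, 287, 266, 450 and 375 CPM in naive EVs, against 3.43, 0.915, 1.81 and 2.47 CPM in naive ASC. The groups did not overlap, and ASC libraries held 0 to 6 counts of Mir5112 each. The log2 fold change was 6.47 in primed EVs over primed ASC (SE 0.69, adjusted p = 8.86e-08, edgeR) and 7.20 in naive EVs over naive ASC (SE 0.69, adjusted p = 2.46e-08, edgeR). With 8 and 7 counts in the ASC groups, the primed value of Mir5112 was 7.45 without primed ASC 2 and 5.90 without primed ASC 5, and its call held. Since Mir5112 passed the filter through its EV counts, its calls are a description.

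Mir5108 had the same pattern with fewer counts. Its counts were 45, 19, 56, 50 and 59 in primed EVs 1 to 5, against 0, 1, 2 and 2 in primed ASC. They were 100, 81, 59, 67 and 48 in naive EVs, against 0, 3, 1 and 1 in naive ASC. In raw counts every EV library was above every ASC library, but primed EV 2, the deepest library, was at 7.08 CPM, below primed ASC 4 at 8.30 CPM from 2 counts. The log2 fold change was 4.77 in primed EVs over primed ASC (SE 0.85, adjusted p = 5.92e-05, edgeR) and 5.70 in naive EVs over naive ASC (SE 0.83, adjusted p = 6.65e-06, edgeR). Both calls of Mir5108 held without any 1 library, at 4.06 without primed ASC 2, 5.42 without primed ASC 4 and 6.39 without naive ASC 3. Mir5108 too passed the filter through its EV counts.

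Mir5119, within Cdk12, was counted in every EV library and in 1 library of each ASC group. Its counts were 37, 21, 45, 57 and 49 in primed EVs 1 to 5, against 0, 0, 1 and 0 in primed ASC. They were 34, 42, 49, 43 and 21 in naive EVs, against 0, 0, 1 and 0 in naive ASC. With 1 count per ASC group the ratio of summed counts per scaled total is given. It was 95.6 for primed EVs over primed ASC (95% interval 17.0 to 3796) and 131 for naive EVs over naive ASC (23.2 to 5187), where the interval is exact and covers counting error only. Without primed EV 2 the primed ratio was 168, and without primed ASC 2 it was 53.8. Without the single library that held the ASC count, the ratio was at least 28.8 (primed) and at least 30.1 (naive), against a floor of 3 counts over the group. Mir5119 passed the edgeR test in both comparisons (adjusted p = 1.20e-05 and 7.11e-06), but it entered that test only through its EV counts.

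Mir6538 and Mir5100 had few counts in EVs too. Mir6538 had 1, 89, 8, 12 and 3 counts in primed EVs, against 1, 0, 0 and 0 in primed ASC, and 36, 14, 36, 10 and 6 in naive EVs, against 3, 0, 1 and 0 in naive ASC. Primed EV 2 thus held 89 of 113 primed EV counts. The ratio of summed counts of Mir6538 was 51.7 for primed EVs over primed ASC (95% interval 9.10 to 2060), 21.4 without primed EV 2 (3.49 to 881) and at least 9.71 without primed ASC 2, where the ASC group is at 0. For naive EVs over naive ASC the log2 fold change of Mir6538 was 3.84 (SE 0.87, adjusted p = 0.00075, edgeR), and the ratio of summed counts was 17.6, or 59.1 without naive ASC 1, which held 3 of the 4 ASC counts. Mir6538 was also called in the primed comparison (adjusted p = 0.000979, edgeR), but it too entered the test only through its EV counts.

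Mir5100, whose hairpin holds the tRNA-like letters, had 18, 43, 2, 6 and 7 counts in primed EVs, against 0 in each primed ASC library, and 20, 17, 17, 5 and 2 in naive EVs, against 0, 0, 1 and 1 in naive ASC. Every EV library thus held at least 2 counts, and no ASC library more than 1. Mir5100 was at least 11.6-fold higher in primed EVs, at a floor of 3 counts over the primed ASC group, and the ratio was 21.1 in naive EVs over naive ASC (95% interval 5.59 to 178). Without primed ASC 2 the bound was 6.53, and without naive ASC 5 the naive ratio was 32.7, since 1 count then remained. Mir5100 was not tested by edgeR.

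Mir6236, which held most of the counts, parted from this pattern. It had 1679, 3324, 2904, 2926 and 3949 CPM in primed EVs 1 to 5, and 1175, 4800, 3962 and 2162 CPM in primed ASC 2 to 5. It had 1960, 1696, 4412, 6483 and 2969 CPM in naive EVs 1 to 5, against 1313, 1351, 614 and 870 CPM in naive ASC. Primed groups overlapped throughout, while every naive EV library was above every naive ASC library. Mir6236 was 3.38-fold higher in naive EVs than in naive ASC (log2 fold change 1.76, SE 0.42, adjusted p = 0.00121, edgeR). In primed EVs over primed ASC it was at -0.03 (SE 0.40, adjusted p = 0.952, edgeR), a value whose sign depends on the processing.

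Mir5126, the GC-richest hairpin, had the same shape at low counts. It averaged 11.8 ± 5.67 CPM in primed EVs and 12.3 ± 6.32 CPM in primed ASC, and 10.9 ± 8.08 CPM in naive EVs and 2.49 ± 1.39 CPM in naive ASC (SD, n = 5, 4, 5 and 4). Libraries held 4 to 57 counts in primed EVs, 4 to 7 in primed ASC, 4 to 19 in naive EVs and 1 to 4 in naive ASC. Mir5126 was higher in naive EVs than in naive ASC at 2.02 (SE 0.68, adjusted p = 0.0134, edgeR), with overlapping libraries. Since no naive ASC library helped Mir5126 pass the filter, its call is not independent support for a higher level in naive EVs. This call of Mir5126 was lost with library totals alone (adjusted p = 0.0569) and with limma-voom (adjusted p = 0.0687). In primed EVs over primed ASC Mir5126 was at 0.15 (adjusted p = 0.841, edgeR).

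Mir5114, the locus inside Scd2, was lower in EVs but by less than Mir5099. It had 95.8, 16.4, 67.9, 30.3 and 60.3 CPM in primed EVs 1 to 5, against 66.3, 61.8, 124 and 179 CPM in primed ASC 2 to 5. It had 19.6, 22.6, 18.9, 16.6 and 24.8 CPM in naive EVs, against 30.9, 38.4, 38.8 and 62.9 CPM in naive ASC. Primed groups overlapped and naive groups did not. Mir5114 was at -1.02 in primed EVs over primed ASC (SE 0.42, adjusted p = 0.039, edgeR) and at -1.06 in naive EVs over naive ASC (SE 0.44, adjusted p = 0.0384, edgeR). The primed call of Mir5114 was lost without primed EV 2 or 4 or primed ASC 4 or 5 (adjusted p 0.0747 to 0.19), and in 2 of 9 other settings, no filter (0.0668) and only the groups compared (0.0816). The naive call was lost without any 1 of naive EVs 1 to 4 or naive ASC 3, 4 or 5 (adjusted p 0.051 to 0.187) and in 7 of 9 other settings.

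Counted over the 8 tested loci, 6 passed in primed EVs against primed ASC, 4 higher and 2 lower, where 68.2% of all 245 loci passed (35.9% higher, 32.2% lower). In naive EVs against naive ASC 8 passed, 6 higher and 2 lower, where 66.1% of all loci passed (33.5% higher, 32.7% lower). Libraries did not overlap for 4 of the 8 loci in the primed comparison (53.5% of all loci) and for 7 of the 8 in the naive one (58.4% of all loci). The median log2 fold change of the 8 was 2.46 (primed) and 2.93 (naive), against 0.02 and -0.24 over all loci. With Mir5100 included and groups at 0 set to their bound, the median log2 ratio of summed counts over the 9 loci was 3.54 and 4.14. The loci were chosen with such counts known and 4 passed the filter only through EVs, so nothing about the set is read from these numbers. With library totals alone, 58 of all loci were higher and 118 lower in the primed comparison (88 and 79 with TMM), and 65 higher and 116 lower in the naive one (82 and 80 with TMM). Each called locus of the 8 kept its direction under that scaling.

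**Figure D3:**
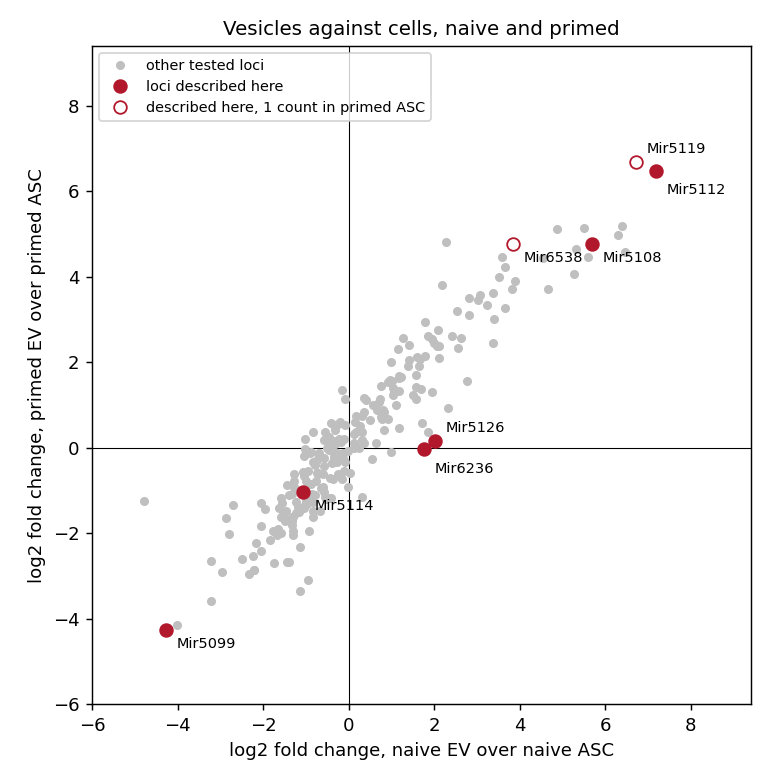
Log2 fold change of primed EVs over primed ASC (vertical) against that of naive EVs over naive ASC (horizontal), for the 245 tested loci. The 8 tested loci described here are in red and the other tested loci in grey. Mir5112 lies at 7.20 and 6.47 and Mir5099 at -4.29 and -4.27, while Mir6236 and Mir5126 are high only on the naive axis, and open points mark loci with 1 count in primed ASC, whose fitted values are uncertain.

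Priming of the cells was not followed by a called change at any of the 8 loci in EVs. In the comparison of primed with naive EVs 0.816% of all loci passed (2 of 245) and 10.2% had an unadjusted p under 0.05, among them Mir5114 and Mir5099. By DESeq2 and by limma-voom 0 of the 8 passed as well. Mir5114 averaged 54.1 ± 31.4 CPM in primed EVs and 20.5 ± 3.20 CPM in naive EVs (SD, n = 5 each), a log2 fold change of 1.37 (SE 0.42, adjusted p = 0.109, edgeR). Primed EV 2, at 16.4 CPM, was below all 5 naive libraries while the other primed libraries were above them, and without it Mir5114 was at 1.62 (adjusted p = 0.0301, edgeR). Mir5099 averaged 39.2 ± 11.5 CPM in primed EVs and 58.6 ± 21.6 CPM in naive EVs (n = 5 each), at -0.60 (SE 0.25, adjusted p = 0.403, edgeR). Mir6236 averaged 2956 ± 830 and 3504 ± 1977 CPM in primed and naive EVs, at -0.24 (SE 0.38, adjusted p = 0.843). The other 5 loci were at -0.44 (Mir6538), -0.25 (Mir5108), -0.10 (Mir5112), 0.24 (Mir5126) and 0.41 (Mir5119), with adjusted p of 0.83 to 0.941. The groups overlapped for all 8 loci, as they did for all but 2.45% of the 245.

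In the cells themselves Mir6236 passed. It averaged 3025 ± 1653 CPM in primed ASC and 1037 ± 357 CPM in naive ASC (SD, n = 4 each), and was 2.91-fold higher in primed ASC (log2 fold change 1.54, SE 0.43, adjusted p = 0.0297, edgeR). The groups overlapped, since primed ASC 2 at 1175 CPM was below naive ASC 1 and 3. The call of Mir6236 was lost with limma-voom (1.35, adjusted p = 0.0709) and without primed ASC 3 (1.23), primed ASC 4 (1.38), naive ASC 4 (1.36) or naive ASC 5 (1.56), at adjusted p of 0.0515 to 0.104. Primed ASC 3 and 4, the 2 highest libraries, were also the 2 shallowest, with 303069 and 180812 counts. Whether depth had a part in this was not tested. The naive ASC libraries enter both this comparison and that of naive EVs with naive ASC.

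Of the 8 loci 1 passed in primed against naive ASC, where 10.2% of all loci passed (5.31% higher, 4.9% lower), and 4 had an unadjusted p under 0.05, as 23.3% of all loci did. Mir5126 had 6.36, 18.8, 16.6 and 7.45 CPM in primed ASC, above the 1.71, 0.915, 3.61 and 3.70 CPM of naive ASC, at 2.10 (SE 0.73, adjusted p = 0.0708, edgeR). It passed without primed ASC 5 (2.38, adjusted p = 0.0497, edgeR), but no naive ASC library helped it through the filter, so these values are a description. Mir5114 averaged 108 ± 55.2 CPM in primed ASC and 42.8 ± 13.9 CPM in naive ASC (n = 4 each), at 1.33 (SE 0.45, adjusted p = 0.0657, edgeR), and passed without primed EV 1, primed EV 2 or primed ASC 2 (adjusted p from 0.0326 to 0.0472) and in 5 of 9 other settings. Mir5099 averaged 744 ± 111 CPM in primed ASC and 1137 ± 211 CPM in naive ASC, with every primed library lower, at -0.61 (SE 0.26, adjusted p = 0.157, edgeR). Of the 8 loci, 1 was higher and 1 lower without overlap, against 11.4% of all loci. Mir5108, Mir5112, Mir5119 and Mir6538 had 1 to 8 counts per ASC group, and a change by priming was not detectable at this depth.

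**Figure D4:**
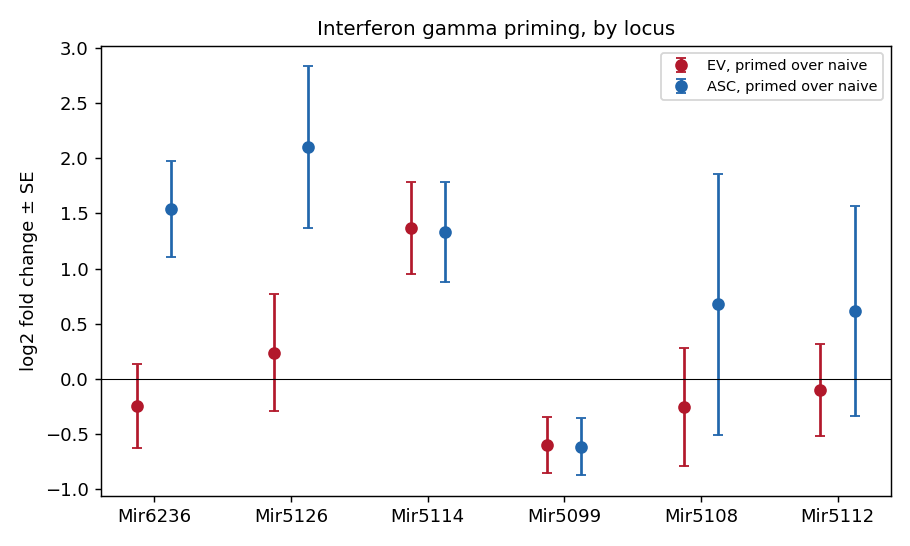
Log2 fold change of primed over naive EVs (red) and of primed over naive ASC (blue) for 6 of the 8 tested loci, with bars of 1 SE. Mir6236 and Mir5126 are at 1.54 and 2.10 in ASC and at -0.24 and 0.24 in EVs, while Mir5114 and Mir5099 have like values in both, and only Mir6236 in ASC passed its test. Mir5119 and Mir6538 are left out because they had 1 to 4 counts per ASC group.

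The difference between the 2 priming effects was tested as an interaction. For Mir6236 the effect in EVs minus that in ASC was -1.79 (SE 0.57, adjusted p = 0.266, edgeR), and for Mir5126 it was -1.87 (SE 0.90, adjusted p = 0.412). For Mir5114 and Mir5099 it was 0.04 (SE 0.57) and 0.02 (SE 0.41). No locus of the 245 passed by edgeR (0.0%), 10.6% had an unadjusted p under 0.05, and the 8 loci held 1 of these. Mir6236 passed with DESeq2 (adjusted p = 0.0424) and without the filter on low counts (-1.59, adjusted p = 0.00158).

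The loci most like each member were found by the root mean square difference between centred log2 CPM profiles over the 18 libraries. Every locus is read from the same libraries, which differ in depth and, between EVs and ASC, in isolation method. The distance is in log2 units and is a description. For Mir6236 the nearest other locus was Gm23388 at 0.325, then Mir6240 at 0.600, and Mir5126 was nearest to Gm23388 at 0.587 and Gm26117 at 0.644. Mir6236 and Mir5126 were 0.545 apart from each other. Gm23388 averaged 58.4 ± 17.0 CPM in primed EVs, 59.5 ± 36.0 in naive EVs, 40.2 ± 22.1 in primed ASC and 18.3 ± 7.49 in naive ASC, and Mir6240 averaged 236 ± 104, 212 ± 167, 127 ± 79.2 and 42.4 ± 10.7 CPM. Both loci were thus lowest in naive ASC, as Mir6236 was.

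The EV loci lay nearest to miRNAs of blood cells and others. Mir5112 was nearest to Mir142b, of leukocytes, at 0.701 and to Mir301 at 0.792. Mir5108 was nearest to Mir150, of lymphocytes, at 0.787 and to Mir144, of red cells, at 0.793, and Mir5119 to Mir144 at 0.682 and Mir340 at 0.698. Mir5108 and Mir5119 were 0.508 apart. Blood cell miRNAs as a list held a median of 0.413% of counts in primed EVs, 0.454% in naive EVs, 0.0273% in primed ASC and 0.0141% in naive ASC, and none of the 5 loci was at 0 in any group. Their part in the EV values of Mir5108, Mir5112 and Mir5119 was not tested. Mir6538 was nearest to Mir380 at 0.626 and Mir190a at 0.741.

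On the cell side Mir5099 was nearest to Mir193b at 0.730 and Mir3072 at 0.793. Mir193b averaged 84.4 ± 22.1 CPM in primed EVs and 86.1 ± 22.9 CPM in naive EVs, against 1003 ± 191 CPM in primed ASC and 801 ± 264 CPM in naive ASC. Mir5114 was nearest to Mir423 at 0.610 and Mir151 at 0.641, and the nearest of the 9 loci, Mir5126, lay 1.32 away.

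A further 412 loci in the files have numbers of 5000 or above, 215 of them with a count, and 9 of these were tested. Of the 9, 1 was higher and 4 lower in primed EVs than in primed ASC, and 2 were higher and 3 lower in naive EVs than in naive ASC, with medians of -0.92 and -1.04. Mir6240 was at 0.92 (primed, no call) and 2.33 (naive, called), Mir6244 at 1.31 and 1.95 (both called). Mir8112 was at -1.90 and -1.66, and Mir7224 at -2.33 and -1.13, each called in both. Mir7035 was at -3.36 (called) and -1.14 (no call), and Mir6945 at -0.86 and -1.46 without a call. With priming 0 of the 9 passed in EVs and 1 in ASC, Mir7224 at 2.04 (SE 0.43, adjusted p = 0.00746, edgeR). Of all 245 loci, 68.2% passed in the primed comparison (35.9% higher, 32.2% lower) and 66.1% in the naive one (33.5% higher, 32.7% lower). With priming 0.816% of all loci passed in EVs and 10.2% in ASC. Nothing about these other late-numbered loci as a set is read from their counts of calls.

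For scale, abundant miRNAs were set beside the 9 loci. Mir21a was at 3.58 in primed EVs over primed ASC and 3.07 in naive EVs over naive ASC, Mir22 at 1.65 and 1.23, Mir143 at 2.32 and 1.15, and Mir191 at -1.59 and -1.53. The differences of Mir5112, Mir5108, Mir5119 and Mir6538, all near 0 in ASC, lay above this range in both comparisons, and that of Mir5099 below it. Other miRNAs lay above it too, such as Mir142b (5.19 primed, 6.40 naive) and Mir301 (4.66 and 5.32).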

How the data were processed

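The deposited files hold 1 raw count per miRNA locus and library. Per the file headers, the authors made them with featureCounts 1.5.3 on miRNA genes of Ensembl release 76, unstranded and without options for reads mapping to several places, which that tool then leaves out. According to the submitters' processing notes the tools were featureCounts 1.45, Subread, STAR 2.0.4 and bcl2fastq, with build GRCm38. How reads were trimmed or aligned is not given in the sources consulted.

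Members, lists and tests were chosen with earlier results of these data known. All 9 loci are named, with the 2 other loci most like each tested one, up to 6 other late-numbered loci with the largest naive EV difference, and 4 abundant miRNAs. Symbols come from GENCODE M21 (1894 of 2009 loci matched by identifier).

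Counts were tested with edgeR 4.0.16 in R 4.3.3 (filterByExpr by group, leaving 245 loci with 99.957345% of counts, then TMM, 1 mean per group, quasi-likelihood test, Benjamini-Hochberg). The procedure was tested on simulated counts. Alternatives were RLE, TMMwsp, library totals alone, no filter, DESeq2 1.42.0, limma-voom (limma 3.58.1), only the groups compared, replicate blocks and leaving out each library. Count intervals (95%, exact, scipy 1.17.1) and floors of 3 counts cover counting error only, because reads carried no molecular identifiers.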

Additional observations from a re-analysis of the deposited data

Results flagged for a closer look

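In 3 cases 1 library stood apart from the others of its group of 4, and each rests on a single count. Mir5119 was at 4.15 CPM in primed ASC 4 and at 0.903 CPM in naive ASC 4, and Mir6538 was at 0.908 CPM in primed ASC 2, while the other libraries of these groups had 0 counts. In all 39 groups of libraries were examined in this way. Chance marks about 1 group in 20 for normally spread values, but that rate does not hold for counts near 0. A group at 0 in all libraries but 1 is always marked by the rule used.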

How the results depend on the processing

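Counts of called loci in the 2 comparisons of EVs with ASC stayed within 1.5 times under each alternative, with 5 to 6 of the 8 loci in the primed and 6 to 8 in the naive one. Library totals alone moved the median of the 245 log2 fold changes to -0.69 (primed, from 0.02) and -0.70 (naive, from -0.24), with 58 higher and 118 lower against 88 and 79, and with 65 higher and 116 lower against 82 and 80. The cause of changed calls was not tested.

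In primed against naive EVs (EV priming) the 2 calls over all loci became 1 with TMMwsp or library totals alone, 8 without a filter, 5 with DESeq2, and 2 to 8 without 1 library, with 0 to 1 of the 8 loci. The 8 calls, and the 1 among the 8 loci, came without primed EV 2. In primed against naive ASC (ASC priming) the 1 call among the 8 loci became 2 with RLE, DESeq2 or only the groups compared, 0 with limma-voom, and 0 to 2 without 1 library, and all loci gave 6 to 35 calls, with 9, 10, 14 and 6 without primed ASC 3, primed ASC 4, naive ASC 3 and naive ASC 4. In the interaction, no filter and DESeq2 gave 1 of the 8 loci and 3 of all loci, and leaving out 1 library gave 0 to 12 of all loci, with 12 without primed ASC 5 and 1 without naive ASC 5.

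The check used did not settle whether numbers pair the samples. Correlations of same-numbered libraries ran from -0.161 to 0.525, and those of other pairs from -0.613 to 0.662. By source number, 3 of 4 naive EV libraries correlated best with the naive ASC library of their number. The same held for 2 of 4 primed EVs with primed ASC, 2 of 5 primed with naive EVs and 2 of 3 primed with naive ASC. Libraries are numbered here by source name. Primed EV 1 carries the number 5 in its title, as primed EV 5 does, and which label is right is not known. With a replicate block by source or title number 2 of the 8 loci were called in ASC priming. The block by title number gave 7 calls over all loci in EV priming. With these blocks (source, title) Mir6236 in primed EVs over primed ASC was at 0.22 in both. By title number Mir5119 in EV priming was at -0.19 and the interactions of Mir5099 and Mir5114 at -0.013 and -0.37, the last -0.26 by source number.

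Other signs that turned belong to values without a call. In primed EVs over primed ASC these were Mir5126 with library totals alone (-0.50) and Mir6236 without a filter (0.12) or with limma-voom (0.20). With limma-voom Mir5119 in EV priming was at -0.11 and Mir6538 in ASC priming at 0.0099. Interactions turned for Mir5099 (RLE, library totals and DESeq2 -0.20, TMMwsp -0.23), Mir5114 (RLE and DESeq2 -0.20, TMMwsp -0.28, library totals -0.18, limma-voom -0.35) and Mir6538 (limma-voom -0.52). Leaving out 1 library turned further values without a call. In primed EVs over primed ASC the ranges were -0.27 to 0.47 (Mir5126) and -0.30 to 0.29 (Mir6236). In EV priming they were -0.58 to 0.078 (Mir5108), -0.49 to 0.14 (Mir5112), -0.076 to 0.61 (Mir5126) and -0.31 to 0.10 (Mir6236). In ASC priming they were -0.36 to 1.24 (Mir5112), -1.65 to 2.06 (Mir5119) and -3.29 to 0.16 (Mir6538). In the interaction they were -0.11 to 0.23 (Mir5099), -1.30 to 0.26 (Mir5112), -0.31 to 0.36 (Mir5114), -1.65 to 2.07 (Mir5119) and -0.60 to 2.85 (Mir6538).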
